A study of Oryza sativa with 4 samples.

Results

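In young rice panicles, 109 of 45027 loci passed a level limit and differed at least 2.5-fold between the 2 wild-type (WT) libraries of the study. The members were chosen by their levels in the WT libraries in counts-per-million (CPM), the reads of a locus scaled to the total reads of its library. The rule kept loci whose larger WT value was at least 20 CPM and at least 2.5 times the other WT value. Of the 8190 loci that reached 20 CPM in a WT library, 105 were higher in the WT library with the barcode ACCC (1.28%) and 4 were higher in the WT library with the barcode CGTA (0.0488%). These differences chose the loci, so they are given as descriptions without a test. The emf2b libraries played no part in the choice.

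The study measured transcripts by RNA-seq in panicles of the cultivar Dongjin at inflorescence stage 7, when a panicle is 0.3 to 1.5 cm long. Plants of both genotypes were kept in a greenhouse under natural light, with 30 °C in the daytime and nights of 25 °C, and the labels name no heat treatment. The mutant group, emf2b, has the genotype label emf2b-1 and 2 libraries with the barcodes GAGT and TTAG. The controls are WT Dongjin with the libraries ACCC and CGTA. EMF2B encodes a subunit of Polycomb repressive complex 2, which places a repressive mark on histone H3, and the series title ties it to the determinacy of the flower meristem and the specification of floral organs. The protocol text of all 4 samples names wild-type Dongjin as the source of the tissue, so the groups rest on the genotype label. Nothing says whether the libraries of a group came from separate plants, so their spread may be technical. In whole panicles, fewer cells of a type and less RNA per cell cannot be told apart.

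Plants answer heat and other conditions that unfold proteins through heat shock transcription factors (HSFs), which bind the promoters of chaperone genes. Small heat shock proteins hold unfolding proteins in a soluble state, and the CLPB/HSP101 proteins pull aggregates apart so that HSP70 and HSP90 chaperones can refold them. In rice panicles this response is known for its bearing on fertility at high temperature. Of the 20 members to which a name could be given, 15 are genes of this response, and 4 of the other 5 names were matched after values had been seen. The share depends on which genes the lists hold: of the 86 named list genes at 20 CPM or more in WT, 26 were heat genes, of which 15 were members, and 1 of the other 60 was. List loci without a matched name are left out of these numbers, and the heat and histone lists hold members among those loci too.

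The libraries held 12932305 counted reads in emf2b GAGT, 16926873 in emf2b TTAG, 25382519 in WT ACCC and 32087683 in WT CGTA. EMF2B itself (LOC_Os09g13630, chromosome 9) had 9.90 and 11.9 CPM in emf2b GAGT and TTAG, against 37.1 and 38.8 CPM in WT ACCC and CGTA. The emf2b libraries were thus lower than both WT libraries, and EMF2B fell in emf2b (log2 fold change -1.84 ± 0.21 SE; adjusted p = 0.00805 by edgeR's quasi-likelihood test). The 105 loci higher in WT ACCC took 1.24% of the reads of emf2b GAGT, 2.18% of emf2b TTAG, 3.43% of WT ACCC and 0.936% of WT CGTA. For the 4 loci higher in WT CGTA the shares were 0.0362%, 0.0310%, 0.0169% and 0.0435% in the same libraries.

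Differences in favour of WT ACCC ranged from just over the 2.5-fold limit to a locus without a read in WT CGTA. The median ratio of WT ACCC to WT CGTA over the 105 loci was 3.41, which is 1.77 on the log2 scale, while the median over all 8190 loci was -0.08. The ratio was below 4 at 70 of the 105 loci, 4 or more at 35, 6 or more at 10 and 8 or more at 3. Levels in WT ACCC spanned 20.5 to 10301 CPM, with 34 loci under 50 CPM and 6 at 1000 CPM or more. The 4 loci higher in WT CGTA had ratios of WT CGTA to WT ACCC of 2.56 to 2.61.

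**Figure D1:**
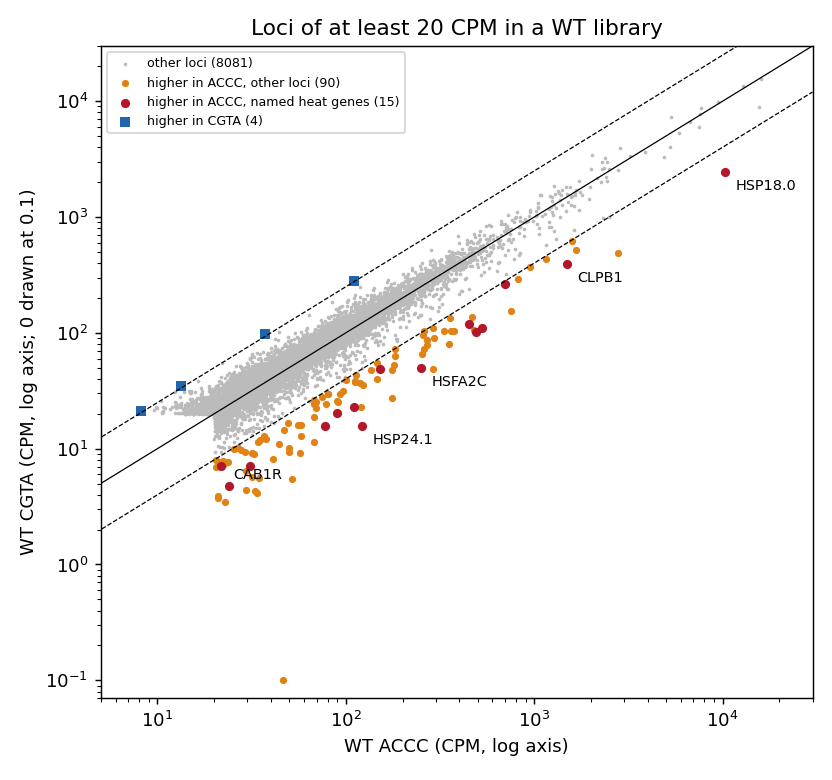
CPM of the 8190 loci with at least 20 CPM in a WT library, in WT ACCC (horizontal) and WT CGTA (vertical), both on log axes, with the locus at 0 drawn at 0.1. Dashed lines mark the 2.5-fold limits; the 105 loci below the lower line include 15 named heat genes, and 4 loci lie above the upper line.

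The transcription factors of the heat response come first. Of the 23 named HSF genes, 8 reached 20 CPM in a WT library and 3 of these were among the 105 loci. The median log2 ratio of WT ACCC to WT CGTA over the 8 was 0.48, with 6 higher and 2 lower in WT ACCC and a minimum of -0.36. HSFA2C (LOC_Os10g28340, chromosome 10), a class A2 activator, had 109 and 134 CPM in emf2b GAGT and TTAG, against 249 and 50.1 CPM in WT ACCC and CGTA. HSFA2A (LOC_Os03g53340, chromosome 3), of the same class, had 60.5 and 67.9 CPM in emf2b GAGT and TTAG, against 152 and 49.1 CPM in WT ACCC and CGTA. In both genes the emf2b libraries lay close together and between the WT libraries.

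HSFA6A (LOC_Os06g36930, chromosome 6), another class A factor, had 6.88 and 4.79 CPM in emf2b GAGT and TTAG, against 31.0 and 7.11 CPM in WT ACCC and CGTA. Here WT ACCC stood alone, and both emf2b libraries were below WT CGTA. Its log2 fold change between emf2b and WT was -1.75 ± 0.64 SE, which did not pass the test (edgeR quasi-likelihood, adjusted p = 0.124).

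HSFA1 (LOC_Os03g63750), of the class of master activators of the response, was no member and showed no such spread, with 49.95 and 48.4 CPM in emf2b GAGT and TTAG, against 49.4 and 58.5 CPM in WT ACCC and CGTA. Below the 20 CPM limit, another 3 HSF genes were at least 2.5-fold higher in WT ACCC. HSFA2D had 8.27 and 9.51 CPM in emf2b GAGT and TTAG, against 9.02 and 3.24 CPM in WT ACCC and CGTA. HSFA4B had 5.18 and 11.5 CPM in emf2b GAGT and TTAG, against 9.97 and 3.09 CPM in WT ACCC and CGTA. HSFB2B had 1.62 and 5.02 CPM in emf2b GAGT and TTAG, against 2.64 and 0.312 CPM in WT ACCC and CGTA. In all 3 genes the highest library was emf2b TTAG and not WT ACCC, though at HSFA2D these 2 libraries were close.

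Small heat shock protein genes had the highest median WT ratio of the lists. Of the 17 named genes, 12 reached 20 CPM in a WT library, all 12 were higher in WT ACCC than in WT CGTA, and 10 of them were members. Their median log2 ratio of WT ACCC to WT CGTA was 2.11. The summed level of the 17 genes was 6360 and 11104 CPM in emf2b GAGT and TTAG, against 30357 and 12988 CPM in WT ACCC and CGTA. The sum rests mostly on HSP16.9A and HSP18.0.

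HSP18.0 (LOC_Os01g08860, chromosome 1), a cytosolic class II protein, was the most abundant of the 109 loci. It had 2766 and 6914 CPM in emf2b GAGT and TTAG, against 10301 and 2442 CPM in WT ACCC and CGTA. The WT ratio was 4.22 (exact 95% interval 4.18 to 4.25, counting error only), a log2 ratio of 2.08, and the emf2b pair spread less, at -1.32 for log2 GAGT over TTAG. One library of each genotype was high and one low, so the groups overlapped: the log2 fold change between emf2b and WT was -0.45 ± 0.67 SE (edgeR adjusted p = 0.716).

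The same arrangement of the 4 libraries was seen in other small heat shock genes. HSP24.1 (LOC_Os02g52150, chromosome 2), whose protein goes to mitochondria, had 34.6 and 96.1 CPM in emf2b GAGT and TTAG, against 121 and 15.6 CPM in WT ACCC and CGTA. HSP16.9B (LOC_Os01g04380, chromosome 1), a cytosolic class I protein, had 27.7 and 68.1 CPM in emf2b GAGT and TTAG, against 111 and 23.1 CPM in WT ACCC and CGTA. From high to low, both genes ran WT ACCC, emf2b TTAG, emf2b GAGT, WT CGTA.

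HSP23.2 (LOC_Os04g36750, chromosome 4) had 22.1 and 39.0 CPM in emf2b GAGT and TTAG, against 77.8 and 15.8 CPM in WT ACCC and CGTA. HSP18.6 (LOC_Os02g54140, chromosome 2) had 127 and 207 CPM in emf2b GAGT and TTAG, against 451 and 120 CPM in WT ACCC and CGTA. HSP17.4 (LOC_Os03g16020, chromosome 3), a class I protein, had 8.58 and 19.7 CPM in emf2b GAGT and TTAG, against 23.99 and 4.74 CPM in WT ACCC and CGTA. The order of the libraries was again WT ACCC, emf2b TTAG, emf2b GAGT, WT CGTA in all 3 genes.

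In 2 small heat shock genes emf2b GAGT fell below WT CGTA while emf2b TTAG stayed between the WT libraries. HSP26.2 (LOC_Os06g11610, chromosome 6) had 82.2 and 216 CPM in emf2b GAGT and TTAG, against 490 and 102 CPM in WT ACCC and CGTA. HSP17.7 (LOC_Os03g16040, chromosome 3) had 4.41 and 9.98 CPM in emf2b GAGT and TTAG, against 21.7 and 7.07 CPM in WT ACCC and CGTA. HSP26.7 (LOC_Os03g14180, chromosome 3), a chloroplast protein, reversed the order of the mutant libraries, with 40.6 and 27.1 CPM in emf2b GAGT and TTAG, against 89.3 and 20.1 CPM in WT ACCC and CGTA.

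HSP16.9C (LOC_Os01g04360, chromosome 1) was the small heat shock gene among the 109 loci with both emf2b libraries below both WT libraries. It had 116 and 218 CPM in emf2b GAGT and TTAG, against 701 and 262 CPM in WT ACCC and CGTA. The log2 fold change between emf2b and WT was -1.58 ± 0.48 SE and did not pass the test (edgeR adjusted p = 0.0759). Its neighbour HSP16.9A (LOC_Os01g04370), the most abundant gene of the list, was no member, since its WT libraries differed by 1.74-fold. It had 2501 and 1821 CPM in emf2b GAGT and TTAG, against 15647 and 8986 CPM in WT ACCC and CGTA, and it fell in emf2b (log2 fold change -2.55 ± 0.36 SE, edgeR adjusted p = 0.0137, but 0.0513 when loci needed a mean of at least 5 CPM). HSP17.9A (LOC_Os03g15960), the other abundant gene of the list that was no member, had 618 and 1444 CPM in emf2b GAGT and TTAG, against 2305 and 983 CPM in WT ACCC and CGTA. HSP16.9A, HSP16.9B and HSP16.9C are near-identical neighbours on chromosome 1, and the class I genes on chromosome 3 are close in sequence too, so reads could have been shared among them and their separate values are uncertain.

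**Figure D2:**
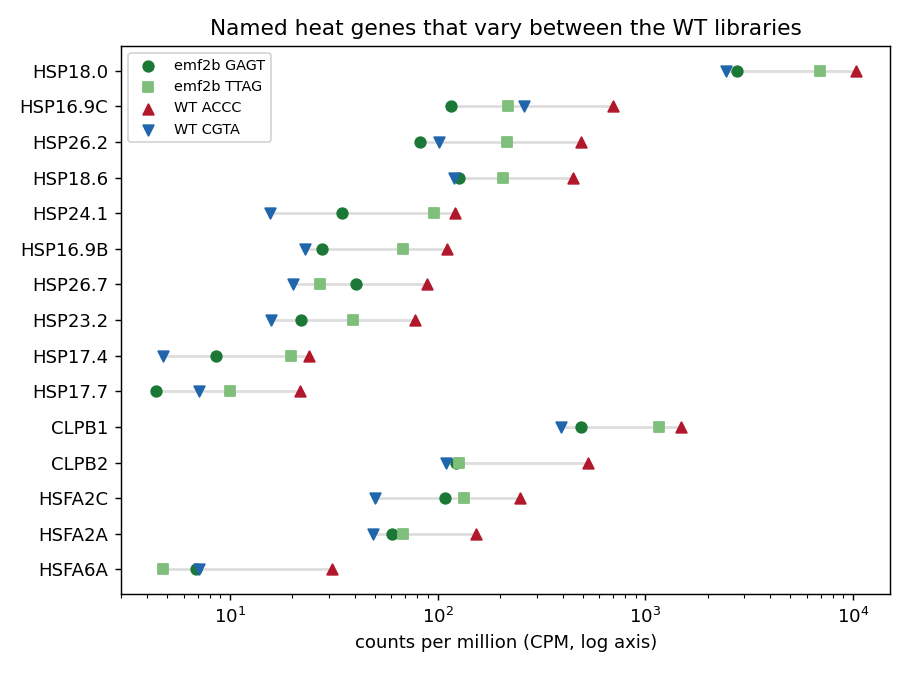
CPM (log axis) of the 15 named heat genes among the 105 loci higher in WT ACCC, with 1 point for each of the 4 libraries. WT ACCC (triangles) is the highest library in all 15 genes; emf2b TTAG (squares) lies above emf2b GAGT (circles) in 13.

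The list of disaggregases, large chaperones and co-chaperones holds 27 loci, and a name could be matched for 8. Of these 8, 6 reached 20 CPM in a WT library, and all 6 were higher in WT ACCC, with a median log2 ratio of 1.24. Of the 19 loci without a matched name, 14 reached 20 CPM, 12 of these were higher in WT ACCC, and the median was 1.43. Members were 2 of the 8 and 7 of the 19, and the WT ratios of the 7 ran from 3.41 to 6.41. They are LOC_Os01g62290, LOC_Os02g43020, LOC_Os03g16860, LOC_Os03g16920, LOC_Os04g45480, LOC_Os05g38530 and LOC_Os06g39240, and their place in the list rests on general knowledge alone. CLPB1 (LOC_Os05g44340, chromosome 5), the cytosolic HSP101 needed for tolerance of severe heat, had 491 and 1161 CPM in emf2b GAGT and TTAG, against 1485 and 393 CPM in WT ACCC and CGTA. CLPB2 (LOC_Os03g31300, chromosome 3), the chloroplast form, had 123 and 127 CPM in emf2b GAGT and TTAG, against 530 and 110 CPM in WT ACCC and CGTA. The 2 genes thus differed in the mutant: CLPB1 ran in the order WT ACCC, emf2b TTAG, emf2b GAGT, WT CGTA, whereas in CLPB2 3 libraries were alike and WT ACCC stood apart.

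The large chaperones that were no members spanned a range. HSP81-1 (LOC_Os08g39140), a cytosolic HSP90, had 854 and 1372 CPM in emf2b GAGT and TTAG, against 2482 and 993 CPM in WT ACCC and CGTA. CLPB3 (LOC_Os02g08490), the mitochondrial disaggregase, had 292 and 142 CPM in emf2b GAGT and TTAG, against 711 and 319 CPM in WT ACCC and CGTA. BIP1 (LOC_Os02g02410), the HSP70 of the endoplasmic reticulum, had 157 and 150 CPM in emf2b GAGT and TTAG, against 328 and 216 CPM in WT ACCC and CGTA. HSP81-2 (LOC_Os09g30412), another HSP90, was nearly level, with 591 and 490 CPM in emf2b GAGT and TTAG, against 724 and 631 CPM in WT ACCC and CGTA.

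HSP81-1 was also the locus nearest outside the fold limit, at a ratio of 2.499. The nearest inside was LOC_Os09g38020 (2.51), with 151 and 145 CPM in emf2b GAGT and TTAG, against 261 and 104 CPM in WT ACCC and CGTA. At the level limit, LOC_Os02g22020 lay just inside with 20.5 and 7.92 CPM in WT ACCC and CGTA, and LOC_Os03g46440 just outside with 19.1 and 7.45 CPM. On the side of WT CGTA, LOC_Os07g01904 was just inside the fold limit (2.56) and LOC_Os03g08580 just outside (2.4997). LOC_Os03g18490 was just inside the level limit there, at 21.3 CPM in WT CGTA, and LOC_Os01g58850 just outside, at 19.98 CPM.

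Another 5 of the 105 loci carried a name. CAB1R (LOC_Os09g17740, chromosome 9), a chlorophyll a/b-binding protein of the light-harvesting antenna, had 15.7 and 46.2 CPM in emf2b GAGT and TTAG, against 22.2 and 7.76 CPM in WT ACCC and CGTA. Its highest library was emf2b TTAG. It was also the sole gene of the 5 named leaf and photosynthesis markers to reach 20 CPM in WT, and the sum of these 5 was 25.98 and 62.2 CPM in emf2b GAGT and TTAG, against 29.6 and 19.3 CPM in WT ACCC and CGTA.

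The other 4 names were matched after values had been seen. ERDJ3A (LOC_Os03g18200, chromosome 3), a J-domain protein, of the class that partners HSP70 chaperones, had 80.3 and 172 CPM in emf2b GAGT and TTAG, against 261 and 73.0 CPM in WT ACCC and CGTA, the same order as CLPB1. BZIP60 (LOC_Os07g44950, chromosome 7), a bZIP transcription factor, had 28.0 and 28.7 CPM in emf2b GAGT and TTAG, against 34.7 and 5.58 CPM in WT ACCC and CGTA, so that WT CGTA stood apart below 3 similar libraries. TGA2.1 (LOC_Os07g48820, chromosome 7), a TGA-class bZIP factor, had 15.1 and 18.08 CPM in emf2b GAGT and TTAG, against 27.6 and 9.66 CPM in WT ACCC and CGTA.

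RFS (LOC_Os01g07530, chromosome 1), raffinose synthase, ran against 13 of the 15 named heat genes in the mutant. It had 28.2 and 3.13 CPM in emf2b GAGT and TTAG, against 33.7 and 4.18 CPM in WT ACCC and CGTA. In both genotypes 1 library was high and 1 low, but in emf2b it was GAGT that was high. The WT ratio was 8.07 (exact 95% interval 6.72 to 9.75, counting error only), and the log2 ratio of GAGT over TTAG was 3.16. By their median, the named genes of abscisic acid and drought response, another class of stress genes, showed such a split of the mutant libraries without a WT difference. The 4 at 20 CPM or more in WT had a median log2 ratio of 1.83 for GAGT over TTAG, though 1 of the 4 was higher in TTAG. Their median for WT ACCC over WT CGTA was -0.09.

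The remaining 85 loci higher in WT ACCC are given by identifier. The widest ratio belonged to LOC_Os12g41270 (chromosome 12), which had 15.3 and 8.74 CPM in emf2b GAGT and TTAG, against 46.2 CPM in WT ACCC and 0 reads in WT CGTA. Set against a floor of 3 reads in WT CGTA, it was at least 494-fold higher in WT ACCC. LOC_Os03g49430 (chromosome 3) came next, at 9.48-fold, with 29.2 and 46.8 CPM in emf2b GAGT and TTAG, against 51.7 and 5.45 CPM in WT ACCC and CGTA. At LOC_Os12g41270 both emf2b libraries were well below WT ACCC, while at LOC_Os03g49430 emf2b TTAG came near it.

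After HSP18.0, the most abundant of the 105 loci was LOC_Os01g62290 (chromosome 1), at 781 and 837 CPM in emf2b GAGT and TTAG, against 2787 and 485 CPM in WT ACCC and CGTA. LOC_Os01g08560 (chromosome 1) had 521 and 1248 CPM in emf2b GAGT and TTAG, against 1661 and 521 CPM in WT ACCC and CGTA. LOC_Os10g32550 (chromosome 10) had 638 and 912 CPM in emf2b GAGT and TTAG, against 1585 and 625 CPM in WT ACCC and CGTA. LOC_Os01g62290 had emf2b libraries that lay together, and LOC_Os01g08560 followed the order seen at CLPB1 down to a WT CGTA level equal to emf2b GAGT. These loci were picked for their level after values had been seen.

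By chromosome, as given in the identifiers, the 105 loci were 25 of the 1241 loci at 20 CPM or more on chromosome 3 (2.01%) and 17 of 1176 on chromosome 1 (1.45%). The share was lowest on chromosome 4, with 3 of 643 (0.467%). Next to each other in the table stood 2 pairs, LOC_Os01g55260 with LOC_Os01g55270 and LOC_Os09g31482 with LOC_Os09g31486. The spread between the WT libraries was therefore distributed over all 12 chromosomes.

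No gene of the lists for panicle and flower development passed the limits. None of the 11 MADS-box, 8 meristem and spikelet, 6 meiosis, 6 cell cycle and replication or 7 circadian clock genes with a matched name and 20 CPM or more was a member in either direction. Their median log2 ratios of WT ACCC to WT CGTA were -0.46, -0.37, -0.52, 0.17 and -0.28, in that order, against 2.11 for the small heat shock genes. All 6 meiosis genes and 10 of the 11 MADS-box genes were lower in WT ACCC than in WT CGTA, by less than 2.5-fold in each. The named cellulose synthase genes (5) and the genes of hypoxia and sugar response (5) had medians of 0.04 and -0.02. In the histone list the 3 named genes were all higher in WT ACCC, with a median of 0.45, and none was a member. Its loci LOC_Os09g38020 and LOC_Os03g51200, without a matched name, were members higher in WT ACCC. LOC_Os03g51200 had 66.8 and 123 CPM in emf2b GAGT and TTAG, against 91.4 and 25.4 CPM in WT ACCC and CGTA. Of the 11 named anther and tapetum markers, 1 reached 20 CPM in WT, with a log2 ratio of -0.06, and none was a member. The seed storage list had 1 named gene, at 0.696 and 3.07 CPM in emf2b GAGT and TTAG, against 0.158 and 0.0935 CPM in WT ACCC and CGTA. These lists were chosen with earlier results of these data known.

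**Figure D3:**
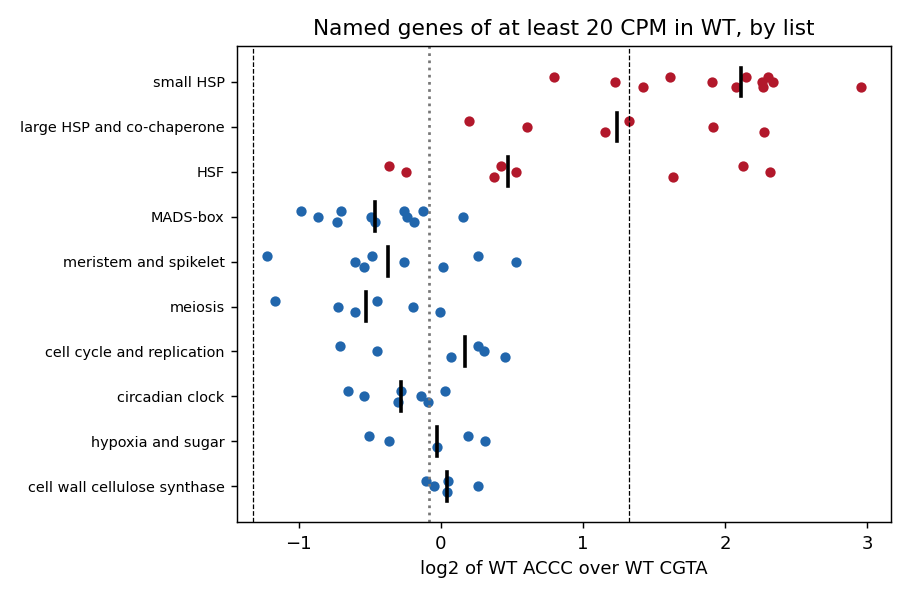
Log2 ratio of WT ACCC over WT CGTA for named genes with at least 20 CPM in a WT library, 1 point for each gene, by list; heat lists are red and other lists blue. Black bars are list medians, the dotted line is the median of all 8190 loci and dashed lines are the 2.5-fold limits; all 12 small heat shock genes lie to the right of 0.

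The emf2b libraries give the same loci a measurement that the rule did not use. At 82 of the 105 loci (78.1%) emf2b TTAG was above emf2b GAGT, against 53.0% of the 8190 loci; it is 1 library against 1 library, so no test was made. With library sizes scaled by TMM (trimmed mean of M values), the numbers were 77 of 105 (73.3%), against 46.4% of all loci. The median log2 ratio of GAGT over TTAG was -0.53 for the 105 loci and -0.02 for all. The emf2b ratio crossed 2.5-fold in favour of TTAG at 12 of the 105 loci, against 0.720% of all loci, and in favour of GAGT at 2, RFS and LOC_Os05g51680, against 0.684%.

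The shift was not limited to the named heat genes. Among the 15 named heat genes, TTAG was above GAGT in 13, with a median log2 ratio of -0.92 for GAGT over TTAG. Among the other 90 loci it was above in 69 (76.7%), with a median of -0.45, but these 90 include the 7 loci of the heat lists without a matched name. Without those, it was above in 63 of 83 (75.9%), with a median of -0.39; the 83 still hold ERDJ3A and loci of no list, so they are no set free of heat genes. The emf2b difference was wider where the WT difference was: the median was -1.03 over the 35 loci with a WT ratio of 4 or more and -0.41 over the 70 below 4. Over all 8190 loci the WT and emf2b log2 ratios were almost unrelated (Spearman's rho 0.0738 across loci, which share libraries and are not independent).

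**Figure D4:**
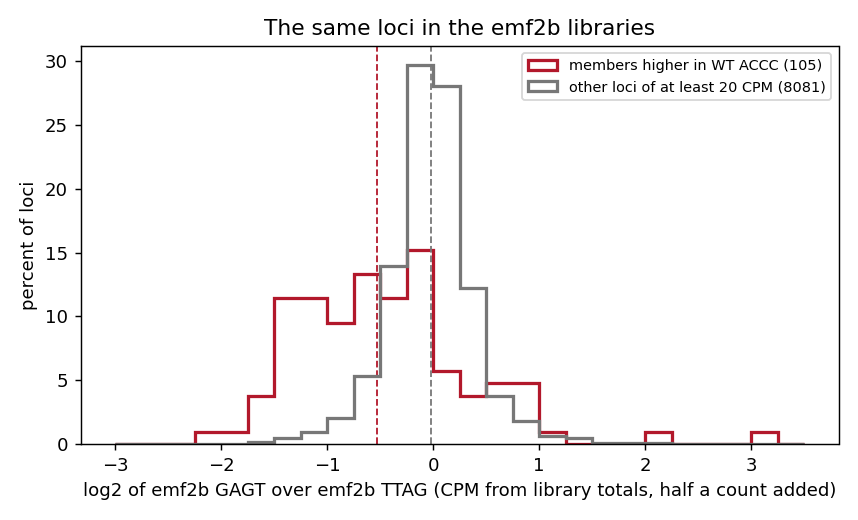
Distribution of the log2 ratio of emf2b GAGT over emf2b TTAG, in percent of loci per bin, for the 105 loci higher in WT ACCC (red) and the 8081 loci of at least 20 CPM that are no members (grey). Dashed lines are the medians, -0.53 for the 105 loci and -0.02 for the others; values beyond the axis are drawn in the end bins.

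Set among the WT libraries, both emf2b values lay between WT ACCC and WT CGTA at 65 of the 105 loci (61.9%), against 10.2% of all 8190. The rule itself picks a wide interval between the WT libraries, so nothing is read from the larger share. WT ACCC was the highest of the 4 libraries at 87 loci (82.9%, against 21.0% of all), and WT CGTA the lowest at 83 (79.0%, against 17.3%). The full order WT ACCC, emf2b TTAG, emf2b GAGT, WT CGTA held at 53 of the 105 (50.5%, against 2.54%), and at 24 of the 35 loci with a ratio of 4 or more. By setting WT ACCC at least 2.5-fold above WT CGTA, the rule raises these shares too, so nothing is read from them either. On the log scale, with 0.1 CPM added, emf2b GAGT was nearer to WT CGTA than to WT ACCC at 81 of the 105 loci (77.1%, against 40.1% of all). For emf2b TTAG it was 45 (42.9%, against 39.9%). Both counts use the WT values that chose the loci, so they are descriptions alone.

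Both emf2b libraries were above both WT libraries at 4 of the 105 loci, against 14.8% of all loci. The widest of these was LOC_Os01g36950 (chromosome 1), which had 723 and 912 CPM in emf2b GAGT and TTAG, against 80.1 and 29.5 CPM in WT ACCC and CGTA. Its emf2b libraries were close together and far above either WT library. It was the one member that passed the test between the genotypes, and it rose in emf2b (log2 fold change 3.85 ± 0.48 SE, edgeR adjusted p = 0.0102). The other 3 were LOC_Os11g32890, LOC_Os01g56890 and LOC_Os11g33270, with log2 fold changes of 1.23, 0.89 and 0.64 that did not pass.

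At 7 of the 105 loci both emf2b libraries were below both WT libraries, against 36.8% of all loci. The wide WT interval set by the rule makes loci above or below both WT libraries rarer, so nothing is read from either share. HSFA6A and HSP16.9C, described above, were among the 7. LOC_Os03g16920 (chromosome 3) had the lowest log2 fold change of the 105, with 22.8 and 11.9 CPM in emf2b GAGT and TTAG, against 176 and 27.4 CPM in WT ACCC and CGTA. WT ACCC stood far above the other 3 libraries, and its log2 fold change of -2.60 ± 0.79 SE did not pass (edgeR adjusted p = 0.0744). The other 4 were LOC_Os08g15204, LOC_Os07g44740, LOC_Os01g12460 and LOC_Os05g38270.

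In the comparison of emf2b with WT, few of the 105 loci passed the test. All loci tested numbered 22615, of which 11.5% were higher and 1.86% lower in emf2b by edgeR's quasi-likelihood test at an adjusted p below 0.05; among the 8190 loci of at least 20 CPM the shares were 1.55% and 3.68%. Of the 105 loci, 1 was higher and 0 were lower, 9 had an unadjusted p below 0.05 (8.57%, 8 of them lower), against 19.5% of the 8190 loci, and DESeq2 called 1 higher and 2 lower, HSFA6A and LOC_Os08g15204. The rule chose loci with a wide WT spread, and their median standard error was 0.54 on the log2 scale, against 0.20 over the 8190 loci. The log2 fold change was negative at 80 of the 105 (76.2%), against 69.1% of the 8190 loci, with medians of -0.43 and -0.16. It includes the WT ACCC values that the rule took for being high, so nothing is read from these shares.

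Leaving out a WT library moved the log2 fold changes in the direction that the rule fixes, since WT ACCC was high and WT CGTA low at these loci by choice. Without WT ACCC, that of BZIP60 was 2.30, against 0.45 with all 4 libraries. Without WT CGTA, those of CLPB2, HSFA6A and HSP16.9C were -2.14, -2.46 and -2.14, against -1.41, -1.75 and -1.58 with all 4 libraries. At LOC_Os01g36950 it was 4.75 without WT ACCC and 3.29 without WT CGTA. Each of these fits leaves 1 WT library, which is assumed to vary like the mutant pair.

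The 4 loci higher in WT CGTA shared no single order of the libraries. LOC_Os05g49770 (chromosome 5), with the widest ratio in this direction, had 27.4 and 12.5 CPM in emf2b GAGT and TTAG, against 13.3 and 34.7 CPM in WT ACCC and CGTA. LOC_Os05g30010 (chromosome 5) had 20.2 and 35.2 CPM in emf2b GAGT and TTAG, against 37.4 and 97.1 CPM in WT ACCC and CGTA. LOC_Os03g18490 (chromosome 3) had 115 and 10.8 CPM in emf2b GAGT and TTAG, against 8.16 and 21.3 CPM in WT ACCC and CGTA. Emf2b GAGT was above TTAG at LOC_Os05g49770 and LOC_Os03g18490 and below it at LOC_Os05g30010.

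LOC_Os07g01904 (chromosome 7), the most abundant of the 4, had 199 and 251 CPM in emf2b GAGT and TTAG, against 110 and 282 CPM in WT ACCC and CGTA, with both emf2b libraries between the WT libraries. LOC_Os03g18490 had the wider split in emf2b, at 3.41 for log2 GAGT over TTAG, so there the mutant pair spread further than the WT pair. None of the 4 passed the test between the genotypes by edgeR (0 higher and 0 lower); 1 had an unadjusted p below 0.05, and DESeq2 called 1, LOC_Os05g30010, lower. Its log2 fold change in edgeR was -1.31 ± 0.44 SE (adjusted p = 0.0996), and both of its emf2b libraries were below both WT libraries.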

How the data were processed

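RNA of 4 panicle samples was amplified with the Ovation RNA-seq system from 10 ng and sequenced as single reads, per the labels' protocols. The authors deposited unnormalized whole-number read counts for each gene model. Per the submitters' processing notes, TopHat2 2.0.5 and DESeq 1.10.1 were among the tools. Neither the read counter, the build, the annotation nor any use of strand is stated in the sources used here, so overlapping and antisense genes cannot be told apart and no coordinates or sequences are printed. Column names give genotype and barcode but no replicate number.

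CPM used the column totals. Taking 3 reads as the floor of a library gives 0.232 and 0.177 CPM for emf2b GAGT and TTAG, and 0.118 and 0.0935 CPM for WT ACCC and CGTA. Log2 ratios between 2 libraries had 0.5 counts added, and intervals of ratios are exact 95% intervals that cover counting error only. The genotypes were compared with edgeR 4.0.16 in R 4.3.3 (filterByExpr, minimum count 10, total 15; TMM factors 0.996, 1.03, 0.973 and 1.00; quasi-likelihood F test, two-sided, Benjamini-Hochberg over 22615 loci, threshold 0.05). Standard errors (SE) were obtained from the log2 fold change and the F statistic, as the size of the change over the root of F. P-values judge the difference between the genotypes against the spread between libraries of a group, which may be technical. On simulated counts for the 22615 loci, the test found 6 of 50 simulated 2-fold changes, 41 of 50 at 4-fold, 44 of 50 at 8-fold and 48 of 50 at 16-fold, and made 4 false calls. The simulated spread was the one that edgeR fitted to loci of the same level. The 105 loci were chosen for a wide WT spread, with a median SE of 0.54 against 0.20 over the 8190 loci. These rates of recovery therefore do not apply to them. Alternatives were DESeq2 1.42.0, other scalings and filters, other limits of the rule, and leaving out each library.

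The members and gene lists were chosen with earlier results of these data known. Names of list genes come from general knowledge and are used where a RefSeq table (assembly ASM3414082v1, another build) has the name on the chromosome of the identifier and in order with its neighbours, as for 198 of 336 list loci; 1833 of 1843 pairs of such genes were in the same order. The pairing of EMF2B with its identifier rests on general knowledge alone. Named were all members with such a name, the 2 widest ratios in each direction, the loci next to each limit and heat genes; other loci are said to be chosen after values were seen, or are the complete set of a count.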

Additional observations from a re-analysis of the deposited data

How the results depend on the processing

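The number of loci higher in WT ACCC was 105; it was 114 with TMM-scaled CPM, 138 and 71 with a minimum of 10 and 50 CPM, 70 with a fold of 3, and 165 with a fold of 2. The 4 loci higher in WT CGTA became 14 and 2 with a minimum of 10 and 50 CPM, and 27 and 0 with a fold of 2 and 3; 3 were past the limits with TMM scaling. With TMM scaling, the median log2 ratio of emf2b GAGT over TTAG was -0.48 for the loci higher in WT ACCC and 0.45 for those higher in WT CGTA, against -0.53 and 0.40 with library totals; TMM moves all loci alike. Counting the loci with TTAG above GAGT under TMM was chosen after seeing the data.

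Calls between emf2b and WT over all loci were 2596 higher and 421 lower. They were 4294 and 1590 without a filter, 177 and 27 when loci needed a mean of at least 5 CPM, and 2854 and 700 by DESeq2; leaving out 1 library gave 252 to 2191 higher and 37 to 471 lower. Among the 105 loci, no filter gave 6 higher and 44 lower, and DESeq2 1 and 2. The fits did not test the same loci, and the number that each alternative tested is not given here. These counts therefore have no share over all loci beside them, and nothing is read from them. Among the 4 loci, no filter gave 1 and 1, DESeq2 0 and 1, and leaving out 1 library 0 to 1 in each direction. The cause of these changes was not tested. LOC_Os01g36950 was called higher in all 9 alternatives of the fit. For the 20 named members, EMF2B and HSP16.9A, 178 alternative values stayed on the same side of the threshold, 19 crossed to a call and 1 lost its call (HSP16.9A with the filter at 5 CPM, log2 fold change -2.44, edgeR adjusted p = 0.0513). No paired analysis was possible because the columns carry no replicate number. With 2 libraries a group and 12932305 to 32087683 reads, each locus has 2 residual degrees of freedom. The quasi-likelihood test adds information on spread from the other loci, and its p-values rest on that too.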
